A study of Mus musculus with 2 samples.

Results

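PANETH-PRE and GOBLET-PRE are classes of mouse ileal crypt cells that the study's authors assigned and whose names mark them as forerunners of Paneth and goblet cells. They were taken as the cells with these names in the authors' deposited cell table, and 4325 of the 11562 listed cells belonged to them. PANETH-PRE had 542 cells, 226 in replicate 1 and 316 in replicate 2, and GOBLET-PRE had 3783, 2318 and 1465. All cells came from Atoh1CreER-T2;R26RTom mice, titled WT in the labels, in which tamoxifen lets a Cre recombinase made where Atoh1 is active turn on a red reporter that stays on in the cell's progeny. The mice received 2 doses of tamoxifen at 1 mg/mL into the peritoneum, 24 h apart, and live Tom+ crypt cells were sorted from the ileum 12 h after the second. Both 10x Genomics 3′ single-cell libraries belong to this 1 group, and an age, a sex or the number of animals was not given in the sources used here. UMIs (unique molecular identifiers, each 1 captured RNA molecule) were summed per library and class, and each class was compared with the other within both libraries. The comparison asks how far the 2 branches of the secretory lineage had parted before maturity.

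Paneth cells sit at the crypt base beside the stem cells, secrete alpha-defensins, lysozyme and other antimicrobial proteins, and supply stem cells with signals such as Wnt3. Goblet cells move up toward the villus and secrete the gel-forming mucin Muc2 with trefoil factors and other mucus proteins. Both arise from Atoh1+ progenitors, and Wnt signalling with Sox9 is known to be needed for Paneth cells, whereas Klf4 is linked to goblet cells.

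PANETH-PRE made up 4.26% of the listed cells of replicate 1 and 5.05% of replicate 2, and GOBLET-PRE 43.7% and 23.4%. The sums held 1705121 and 1593581 UMIs for PANETH-PRE and 13770059 and 5031350 for GOBLET-PRE. A PANETH-PRE cell had a median of 6600.0 and 4342.5 UMIs, and a GOBLET-PRE cell 6104 and 3369. Median mitochondrial shares were 2.97% and 2.72% in PANETH-PRE and 3.80% and 3.57% in GOBLET-PRE. The libraries shared 12 cell barcodes. Levels are UMIs of a gene scaled to a common total per sum (CPM, with scaling factors from abundant genes), given for replicate 1 and then replicate 2. Changes are log2 of PANETH-PRE over GOBLET-PRE with their standard error and the adjusted p of edgeR's quasi-likelihood test over all genes. The authors named the classes from expression in the same cells, so these p-values are no independent evidence that the classes differ. The p-values rest on the spread between the 2 libraries that remains after a library difference shared by all classes is taken out. That spread was estimated over the sums of all 12 classes, most of which are neither PANETH-PRE nor GOBLET-PRE. Since no label ties either library to an animal of its own, it may be technical.

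The 16 Paneth marker genes together took 26.4% and 25.2% of the UMIs of PANETH-PRE and 1.62% and 2.82% of those of GOBLET-PRE. In the mature class named PANETH, a single cell had a median of 74.4% and 71.8% Paneth marker UMIs after every cell was thinned to 2000 UMIs. In PANETH-PRE the same median was 10.5% and 13.2%, with the middle 90% of cells between 1.56% and 58.4% in replicate 1 and between 1.65% and 56.9% in replicate 2. The 10 goblet marker genes took 7.15% and 7.30% of a median PANETH-PRE cell's UMIs and 15.4% and 14.0% of a GOBLET-PRE cell's. The summed goblet marker share of a median PANETH-PRE cell was therefore near that of GP, a class at 7.20% and 7.65%. In the class sums, Spink4 was the largest goblet marker of PANETH-PRE, at 49746.6 and 57340 CPM without the scaling factors. Tff3 came next at 9771.74 and 10657.8. In GOBLET-PRE, Spink4 stood at 35102.6 and 38486.9 and Tff3 at 43238.2 and 40505.8. The summed share thus does not show that each goblet marker lay near its level in GP. PANETH-PRE cells spread over a wide range of Paneth marker content. More Paneth than goblet marker UMIs were found in 58.0% (95% exact binomial interval 51.2% to 64.5%) and 63.7% (57.9% to 69.1%) of PANETH-PRE cells. In GOBLET-PRE these were 0.177% and 0.931% of cells. Thinning left out the cells with fewer than 2000 UMIs, which were 0 and 16 cells of PANETH-PRE and 64 and 176 of GOBLET-PRE.

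**Figure D1:**
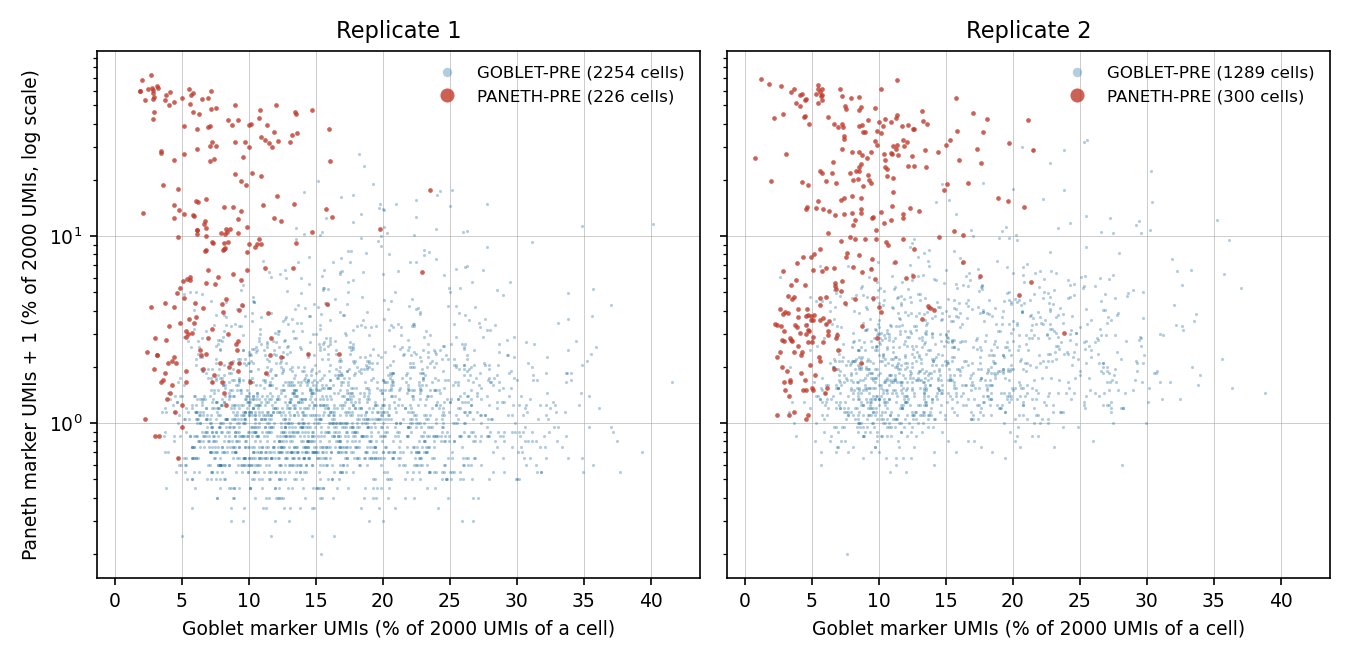
Each point is a cell thinned to 2000 UMIs, with its goblet marker UMIs on the x axis and its Paneth marker UMIs plus 1 on a logarithmic y axis, both as a percent of the cell's UMIs, for each replicate. PANETH-PRE cells (red) run upward at low goblet content from a median of 10.5% and 13.2% Paneth marker UMIs, and GOBLET-PRE cells (blue) lie low, with medians of 1.05% and 1.90%.

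Of 10994 genes tested, 1545 were called higher in PANETH-PRE (14.1%) and 1102 lower (10.0%), so 24.1% were called at an adjusted p under 0.05. Without replicate 1, 1075 genes were called and without replicate 2, 1369. Leaving out a single sum gave 1519 (PANETH-PRE replicate 1), 1578 (PANETH-PRE replicate 2) and 1673 (GOBLET-PRE replicate 1). Of the 2647 called, 635 were at least 2-fold higher and 372 at least 2-fold lower. The direction was the same in both libraries for 99.8% of the called genes, and the median log2 change over all genes was 0.09. Which side held more genes depended on the scaling: with factors computed from all genes, in place of the more abundant ones, 45.7% of the called genes were higher in PANETH-PRE against 58.4% here. Outside the markers, and among genes that averaged 5 or more in log2 CPM, the largest increase was that of Samd5, at 260.3 and 254 CPM in PANETH-PRE and 2.57 and 3.08 in GOBLET-PRE (log2 change 6.52 ± 0.18 SE, adjusted p = 6.66e-44). Its values did not overlap between the classes, as held for 55.4% of all genes tested. Next to the alpha-defensins came Habp2, a secreted hyaluronan-binding protease, at 210.5 and 185 against 4.35 and 4.16 CPM (log2 change 5.50 ± 0.17 SE, adjusted p = 5.97e-45). Fam46c, a poly(A) polymerase of secretory cells, stood at 268 and 255 against 6.26 and 4.52 CPM (log2 change 5.50 ± 0.17 SE, adjusted p = 2.89e-34). Rnase1, a secreted ribonuclease, stood at 769 and 863 against 17.5 and 34.6 CPM, above its 52.1 and 205 CPM in mature PANETH cells. Samd5 lies at chr10:9622936-9675208 and Habp2 at chr19:56287137-56320822 on mm10, and each overlaps another gene on the opposite strand (Gm48760 and Nrap). No source used here states the strand setting of the count, so their reads could not be told from those of the partner. The same holds for Lgr5, Mmp7, Zg16, Sox4, Egf, Dll1, Krt8, Ccnd2, Cftr, Txndc5, Mki67, Cox5a, Psmb8, Klk1, Ccl6, Gfi1, Lrig1, Axin2, Rnf43, Lef1, Ccnd1, Tspan5, Elf3, Spry1, Top2a, Kif11 and Fabp2.

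**Figure D2:**
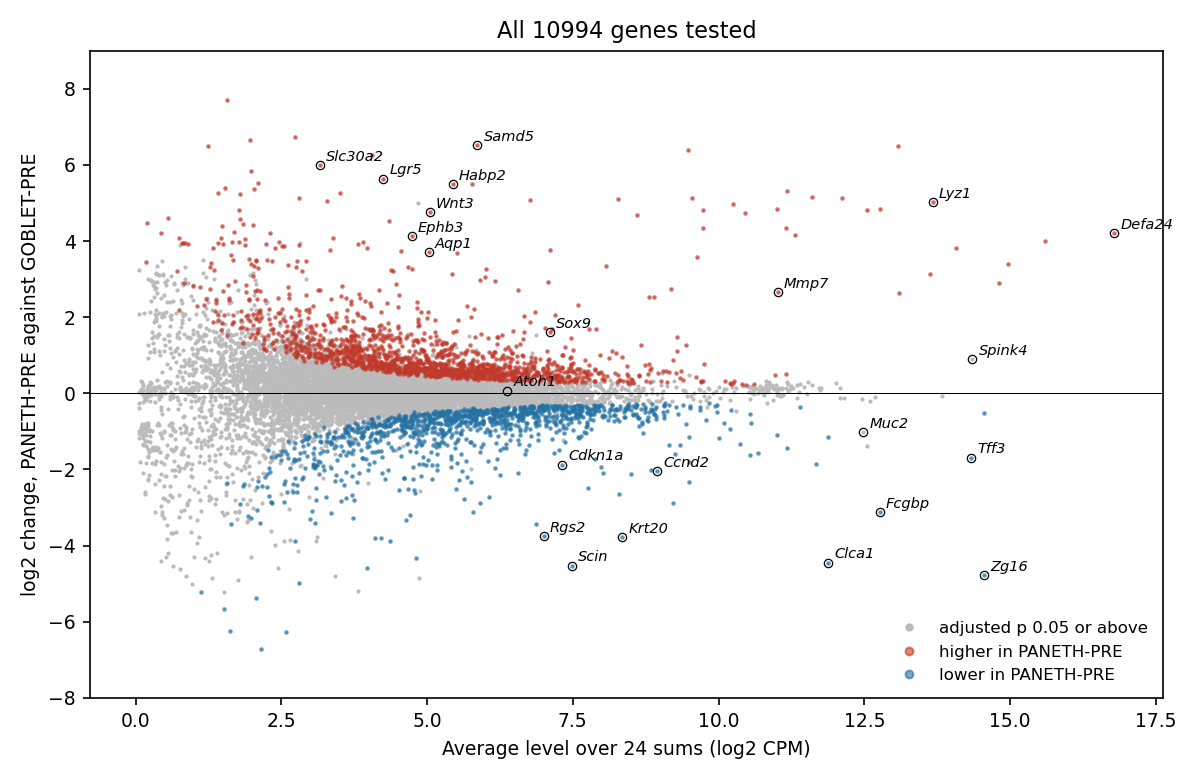
The log2 change of PANETH-PRE against GOBLET-PRE (y axis) is plotted against the average level over the 24 sums in log2 CPM (x axis) for all 10994 genes tested, with circles around selected genes. Red and blue points passed the test, and Samd5 lies highest and Zg16 lowest of the circled genes at 6.52 and -4.78.

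Alpha-defensins, the small cationic peptides of Paneth granules, were higher in PANETH-PRE in all 15 of the members that could be tested, with a median log2 change of 4.73 (14.1% of all genes were called higher). The list held 26 names, of which 20 were in the files and 5 did not pass the filter on low counts, and a filtered list favours members that are high in at least 1 class. Defa24 was the most abundant, at 173332 and 139958 CPM in PANETH-PRE and 7103 and 10829 in GOBLET-PRE (log2 change 4.20 ± 0.52 SE, adjusted p = 7.08e-05). Defa34 had the largest change, from 19.5 and 17.2 CPM in GOBLET-PRE to 2129.6 and 942 in PANETH-PRE (log2 change 6.40 ± 0.32 SE, adjusted p = 1.38e-08). Defa36 stood at 5583 and 4124 against 106 and 176 CPM (log2 change 5.13 ± 0.51 SE, adjusted p = 9.68e-06). The 3 genes were higher in PANETH-PRE in both libraries with no overlap, and 55.4% of all genes tested had no overlap. Alpha-defensin genes are near-identical copies in a cluster on chromosome 8, so how reads were split between copies is uncertain. When only the 4 sums of the 2 classes were fitted, which leaves 1 residual degree of freedom, 2 of the 15 passed and 5 of the 16 Paneth markers, with adjusted p = 0.116 for Defa24, 0.0749 for Defa34 and 0.123 for Defa36 at nearly the same log2 changes.

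The sequence just upstream of these genes is shown because the members move together and because Wnt factors of the Tcf family bind CTTTGA or its reverse complement TCAAAG. The lines give positions 250 to 21 before the RefSeq start site on GRCm38.p6, plus strand, 5′ to 3′, with CTTTGA or TCAAAG in capitals. They lie at chr8:21025295-21025524 (Defa21), chr8:21427178-21427407 (Defa36), chr2:70474673-70474902 (Sp5, a Wnt target described below) and chr7:141690090-141690319 (Muc2, for contrast).
Defa21: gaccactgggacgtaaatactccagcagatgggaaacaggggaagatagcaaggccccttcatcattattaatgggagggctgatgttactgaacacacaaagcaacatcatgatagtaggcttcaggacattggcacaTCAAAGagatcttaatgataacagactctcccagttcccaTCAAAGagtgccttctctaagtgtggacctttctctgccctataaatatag
Defa36: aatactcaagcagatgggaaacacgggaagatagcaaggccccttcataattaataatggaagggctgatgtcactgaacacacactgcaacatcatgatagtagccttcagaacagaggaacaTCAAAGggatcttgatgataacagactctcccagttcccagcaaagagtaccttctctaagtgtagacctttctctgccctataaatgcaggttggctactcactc
Sp5: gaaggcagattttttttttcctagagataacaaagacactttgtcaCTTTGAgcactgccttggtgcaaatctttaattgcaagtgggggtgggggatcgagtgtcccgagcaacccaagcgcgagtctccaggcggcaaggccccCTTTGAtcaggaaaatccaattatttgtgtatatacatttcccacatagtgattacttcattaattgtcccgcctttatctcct
Muc2: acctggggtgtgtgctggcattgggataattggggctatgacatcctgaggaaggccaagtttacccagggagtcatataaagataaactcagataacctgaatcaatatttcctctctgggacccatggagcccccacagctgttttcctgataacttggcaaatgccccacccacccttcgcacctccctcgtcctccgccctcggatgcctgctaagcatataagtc
Defa21 had 2 matches, starting 111 and 71 bases before the start site, and the window of Defa22 was the same as that of Defa21 in all 250 bases. Defa36 had 1 match at 126 bases, Sp5 had matches at 204 and 104 bases, and Muc2 had none. No match lay in the windows of Wnt3 and Ephb3 either, 2 genes that were higher in PANETH-PRE and whose sequences are not printed. Over windows of 250 bases, 12 of 15 alpha-defensin promoters in the RefSeq table held the 6 letters on either strand, against 13.8% of all 32851 promoters. Of the Wnt targets listed, 5 of 17 genes held it, and of the goblet mucus genes 2 of 19, against 15.8% of all genes in the table. The 15 alpha-defensin promoters are those of listed names in the RefSeq table and are not the same set as the 15 members tested. Defa24 and Defa34 are not among the 12 that held a match. Defensin windows are copies of each other and are not independent. A match describes letters only and no binding was measured.

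Of 18 other Paneth granule and antimicrobial genes tested, 13 were higher in PANETH-PRE and 2 were lower, with a median of 2.64. The called share was 83.3%, against 24.1% of all genes. Lyz1, the lysozyme of Paneth granules, stood at 19899 and 22987 CPM against 512 and 823 CPM (log2 change 5.02 ± 0.45 SE, adjusted p = 4.08e-06). Mmp7, the protease that activates alpha-defensins, stood at 6568 and 7399 against 1069 and 1149 CPM (log2 change 2.65 ± 0.29 SE, adjusted p = 2.26e-05). Reg4 stood at 1324 and 1863 against 50.2 and 71.5 CPM and Defb1, a beta-defensin, at 54.7 and 52.6 against 1.38 and 1.63 CPM. The 2 genes that were lower were Lypd8, an antibacterial protein that coats the epithelium (log2 change -1.61 ± 0.16 SE, adjusted p = 3.96e-06), and Reg3a, at no more than 4.89 CPM in any of the 4 sums (adjusted p = 0.0229, and 0.329 without replicate 1). Lyz1 and Mmp7 had no overlap between classes in either library, as held for 55.4% of all genes tested.

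Free RNA may bear on these levels, since barcodes with at most 50 UMIs carried 12.2% and 21.5% Paneth marker UMIs. Defa24 gave a UMI in 99.3% and 100% of thinned GOBLET-PRE cells and in 98.6% and 99.9% of ISC cells, a stem cell class. The part of free RNA in these shares was not tested. Lyz1 gave a UMI in 56.4% and 69.7% of GOBLET-PRE cells (88.0% and 83.4% unthinned) and in 50.3% and 60.2% of ISC cells (82.8% and 81.9% unthinned), against 87.6% and 92.3% of PANETH-PRE cells (96.5% and 96.8% unthinned). Mmp7 differed from this pattern. It gave a UMI in 72.2% and 73.5% of GOBLET-PRE cells (86.8% and 80.5% unthinned), but in 19.2% and 30.7% of ISC cells (33.1% and 45.8% unthinned) and 19.2% and 39.1% of TUFT cells (26.1% and 36.4% unthinned). Its level in GOBLET-PRE was 123% and 105% of its level in the free RNA. Lyz1 in GOBLET-PRE stood at 11.7% and 12.3% of its own free RNA level, and Defa24 at 16.2% and 13.4%. The median depths before thinning were 5825 and 3973 UMIs in ISC and 3403 and 2317 in TUFT. The largest share of free RNA that epithelial markers of other types allow was 5.17% and 4.79% of UMIs in GOBLET-PRE. In PANETH-PRE it was 4.15% and 4.88%. When free RNA was subtracted at this share of each sum, a bound chosen after seeing the data, 10 of the 16 Paneth markers and 11 alpha-defensins passed. Defa24 did not (log2 change 4.68, adjusted p = 0.242). The planned bound used all marker lists, stromal and endothelial markers among them. It allowed no more than 0.0939% and 0.116% in GOBLET-PRE and 0% and 0.365% in PANETH-PRE. Subtraction at that bound kept 2618 of the 2647 genes called, and of the named genes only Top2a and Rps23 lost their call.

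**Figure D3:**
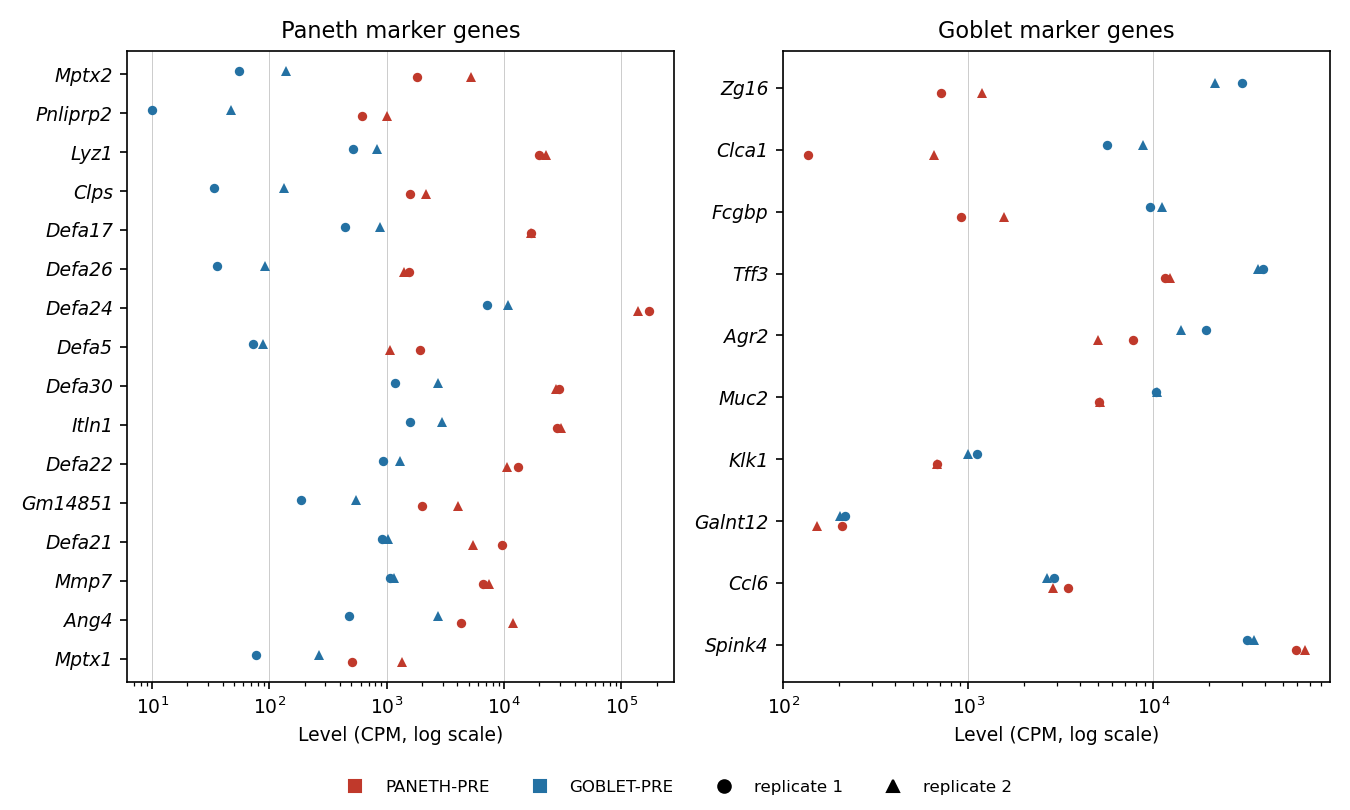
Levels in CPM on a logarithmic x axis are shown for the 16 Paneth markers (left) and the 10 goblet markers (right), with red for PANETH-PRE, blue for GOBLET-PRE, circles for replicate 1 and triangles for replicate 2. Every Paneth marker lies higher in PANETH-PRE in both replicates, whereas Ccl6 and Spink4 among the goblet markers do not lie lower.

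Goblet genes parted by degrees. Of the 10 goblet markers, 5 were lower in PANETH-PRE, none was higher, and the median log2 change was -1.20 (10.0% of all genes were called lower). Zg16, a lectin of the mucus layer, stood at 710.3 and 1178 CPM in PANETH-PRE and 30278 and 21628 in GOBLET-PRE (log2 change -4.78 ± 0.64 SE, adjusted p = 0.000135). Clca1, a protease of mucus, stood at 136 and 648 against 5627 and 8798 CPM (log2 change -4.45 ± 0.57 SE, adjusted p = 0.000101). Fcgbp, a mucin-like protein, stood at 914 and 1552 against 9555 and 11117 CPM (log2 change -3.12 ± 0.45 SE, adjusted p = 0.000233). In these 3 genes the PANETH-PRE values lay far below those of GOBLET-PRE in both libraries. With the 4 sums alone Zg16 and Clca1 did not pass (adjusted p = 0.138 and 0.181). In PANETH-PRE their level did not exceed 32.8% of that in the free RNA. Clca1 gave a UMI in 18.1% and 33.3% of thinned PANETH-PRE cells and in 20.4% and 39.6% of thinned ISC cells. Without thinning the order was the other way, at 41.2% and 51.9% of PANETH-PRE cells and 31.8% and 47.0% of ISC cells, which were shallower.

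Muc2 had a smaller log2 change than these. It stood at 5091 and 5117 CPM in PANETH-PRE and 10306 and 10422 in GOBLET-PRE. The log2 change of -1.02 ± 0.44 (SE) did not pass (adjusted p = 0.124). The classes did not overlap, as held for 55.4% of all genes tested. Agr2, a chaperone of mucin folding, stood at 7772 and 5009.6 against 19135 and 14175 CPM (adjusted p = 0.115). Spink4, a small secreted inhibitor, stood the other way at 58727 and 65883 against 31869.8 and 35037 CPM and did not pass either (adjusted p = 0.119). With the 4 sums alone these 3 genes passed, at nearly the same log2 changes (adjusted p = 3.8e-14 for Muc2, 7.75e-18 for Agr2 and 1.04e-15 for Spink4), and so did Ccl6, which was higher by 0.20 (adjusted p = 0.0237). Spink4 also passed with cells thinned to 2000 UMIs (log2 change 0.67, adjusted p = 0.0171). Which goblet markers were called therefore differed between the 2 fits. Tff3, the trefoil factor of goblet mucus, was lower in PANETH-PRE at 11536 and 12246 against 39256 and 36875 CPM (log2 change -1.69 ± 0.47 SE, adjusted p = 0.0217), and did not pass without replicate 1 (adjusted p = 0.237) or replicate 2 (0.174). The count of goblet markers called lower was 3 without replicate 1, without the replicate 2 sum of PANETH-PRE or without the replicate 1 sum of GOBLET-PRE.

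The longer list of goblet mucus and granule proteins had 12 members lower and 5 higher of 26 tested, with a median of -0.61. The called share was 65.4%, against 24.1% of all genes. The 5 that were higher were Itln1, Retnlb, Ccl9, Sct and Ramp1, the last 2 named after their values were seen. Itln1, an intelectin that Paneth cells also make and that is one of the Paneth markers, stood at 28350.0 and 30519 against 1573 and 2943 CPM. Retnlb, a resistin-like antibacterial protein, stood at 258 and 255 against 16.0 and 66.8 CPM (log2 change 2.97 ± 0.37 SE, adjusted p = 7.99e-05), and did not pass with the 4 sums alone (adjusted p = 0.293). Fer1l6, a member of the ferlin family of membrane proteins, was among the lower genes at 10.4 and 17.3 against 117 and 124 CPM (log2 change -3.12 ± 0.27 SE, adjusted p = 5.94e-10). Of 32 mucin glycosyltransferases, sulfotransferases and their suppliers, 16 were lower and 3 higher (59.4% called), with a median of -0.45. Chst4, a sulfotransferase of mucin glycans, stood at 15.9 and 14.4 against 71.5 and 72.6 CPM (log2 change -2.25 ± 0.22 SE, adjusted p = 1.49e-14), and Papss2, which makes the sulfate donor, at 1.38 and 2.88 against 21.3 and 20.8 CPM from 2 and 4 counts in PANETH-PRE. The 3 that were higher were A4gnt (49.2 and 49.7 against 5.74 and 4.52 CPM), St3gal1 (74.1 and 95.9 against 12.7 and 12.8 CPM) and B4galt1. The count of lower members was 10 without replicate 1, 8 without replicate 2 and 9 without the replicate 2 sum of PANETH-PRE.

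Wnt targets and feedback genes were higher in PANETH-PRE in 20 of the 23 members tested and lower in none, with a median log2 change of 2.18 against 0.09 over all genes. Mmp7, which is among the 20, is also one of the 16 Paneth markers. Lgr5, the stem cell receptor for R-spondins and a Wnt target, stood at 51.2 and 57.7 CPM in PANETH-PRE and 1.12 and 1.09 in GOBLET-PRE (log2 change 5.64 ± 0.37 SE, adjusted p = 3.28e-12). These rest on 74 and 80 counts against 17 and 6. The PANETH-PRE values overlapped those of ISC, 59.3 and 36.3 CPM. Ephb3, the ephrin receptor that keeps Paneth cells at the crypt base, stood at 94.2 and 110.3 against 5.27 and 6.51 CPM (log2 change 4.12 ± 0.18 SE, adjusted p = 2.82e-34), above the 16.5 and 19.3 CPM of ISC. Axin2, Rnf43 and Znrf3, feedback inhibitors of the pathway, changed by 1.94, 1.35 and 2.18, and Sp5, whose upstream sequence is given above, by 2.70; these 4 were named after their values were seen. Ccnd1, Tspan5 and Lef1 did not pass. With cells thinned to 2000 UMIs, 12 members were called higher, and without replicate 1 or without replicate 2 16 were.

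Among ligands, receptors and core components of the pathway, 5 of 22 tested were higher and 1 was lower. The called share of 27.3% lay near the 24.1% of all genes. Wnt3, the ligand that Paneth cells supply, led at 143 and 131 CPM in PANETH-PRE against 5.08 and 5.07 in GOBLET-PRE (log2 change 4.76 ± 0.17 SE, adjusted p = 5.74e-40). Its level in PANETH-PRE was below the 212 and 189.7 CPM of mature PANETH cells and far above the 14.2 and 10.3 CPM of GP. Lgr4, a sister receptor of Lgr5, and Tcf7l2, the main Wnt transcription factor of the gut, changed by 0.91 ± 0.13 and 0.69 ± 0.12 (SE). The single lower gene, Amer1, which helps degrade beta-catenin, changed by -0.77 (adjusted p = 0.0428) and did not pass without replicate 1 (adjusted p = 0.198) or replicate 2 (0.374), among 11 of 18 alternatives. In single cells Wnt3 gave a UMI in 23.9% and 20.7% of thinned PANETH-PRE cells (55.3% and 40.2% unthinned), in 1.06% and 1.24% of GOBLET-PRE cells (3.11% and 1.91% unthinned) and in 0.583% and 0.900% of ISC cells (2.17% and 2.76% unthinned). Lgr5 gave a UMI in 10.2% and 11% of PANETH-PRE cells (24.3% and 20.6% unthinned), 0.222% and 0.310% of GOBLET-PRE cells (0.604% and 0.410% unthinned) and 14.2% and 9.20% of ISC cells (24.2% and 14.3% unthinned).

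**Figure D4:**
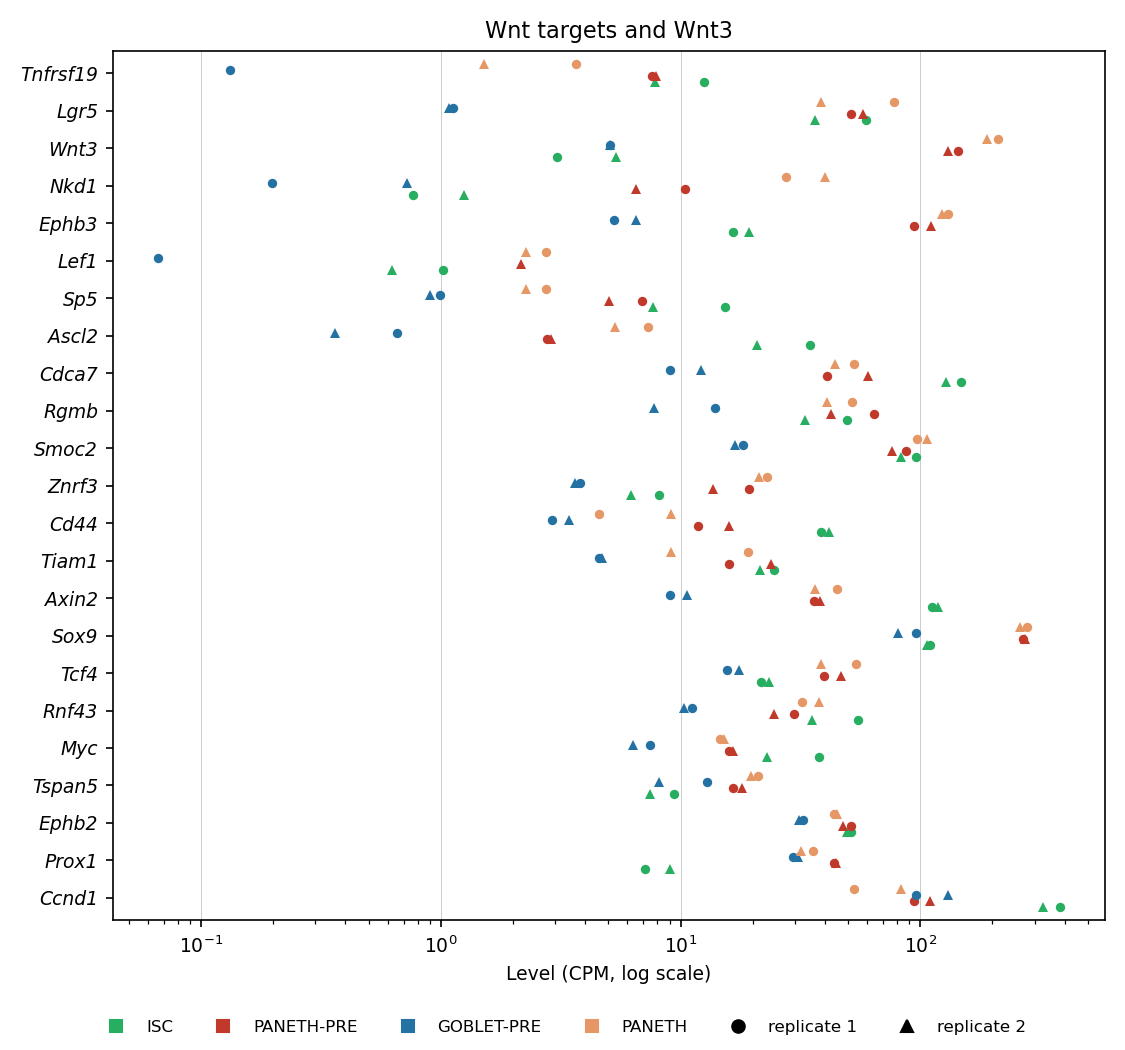
Levels in CPM on a logarithmic x axis are shown for the Wnt targets tested, except Mmp7, and for Wnt3 in ISC (green), PANETH-PRE (red), GOBLET-PRE (blue) and PANETH (orange), with circles for replicate 1 and triangles for replicate 2; values of 0 are not drawn. PANETH-PRE lies right of GOBLET-PRE in both replicates except in Ccnd1 and in replicate 1 of Lef1, and Wnt3 and Ephb3 lie right of ISC as well.

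Stem cell markers overlap that list and moved with it, 9 of 10 being called higher in PANETH-PRE. Olfm4, a stem cell marker that is not among the Wnt targets, stood at 188 and 188 against 19.4 and 18.3 CPM (log2 change 3.35 ± 0.49 SE, adjusted p = 0.000273) and at 1811 and 847 CPM in ISC. The summed stem cell markers took 0.0851% and 0.0843% of UMIs in PANETH-PRE, 0.0556% and 0.0467% in GOBLET-PRE and 0.355% and 0.223% in ISC, and no marker was at 0 in PANETH-PRE. The part of stem cell RNA in the Wnt target result was not tested.

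Transcription factors of the secretory lineage were split, with 9 of 37 higher in PANETH-PRE, 4 lower and a median of 0.15. The called share was 35.1%, against 24.1% of all genes. Atoh1, which commits cells to the lineage and drives the Cre of these mice, stood at 148 and 105 CPM in PANETH-PRE and 133 and 107 in GOBLET-PRE, a log2 change of 0.07 ± 0.17 (SE, adjusted p = 0.824). Its values overlapped. Spdef (-0.03 ± 0.12), Creb3l1 (-0.01 ± 0.13) and Gfi1 (0.03 ± 0.27) did not pass either, and a p that misses the threshold does not show equal levels. Sox9, needed for Paneth cells, stood at 268 and 274 against 95.5 and 80.5 CPM (log2 change 1.61 ± 0.13 SE, adjusted p = 2.5e-15). Bhlha15, a factor of secretory cells that expands their machinery, stood at 114 and 95.9 against 21.7 and 26.8 CPM (log2 change 2.14 ± 0.15 SE, adjusted p = 5.37e-21). Sox4 stood at 44.3 and 58.4 against 11.9 and 12.8 CPM, and at 188 and 139 CPM in ISC. The lower genes were Klf4 at 222 and 275 against 368 and 443 CPM (log2 change -0.70 ± 0.14 SE, adjusted p = 0.000573), Cdx1, Xbp1 (adjusted p = 0.00129, and 0.0852 without replicate 2) and Elf3, which was named after its values were seen. Without replicate 1, 5 factors were called higher.

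The Notch and EGF pathways carry signals between secretory cells and their neighbours. In the Notch list 1 of 19 was higher and 1 lower (10.5% called, against 24.1% of all genes). The lower one was the ligand Dll1 at 42.2 and 29.6 against 60.9 and 60.4 CPM (log2 change -0.75 ± 0.18 SE, adjusted p = 0.000714), which did not pass without replicate 2 (adjusted p = 0.162) or with thinned cells (log2 change -0.13, adjusted p = 0.791). In the EGF list 2 of 13 were higher and 4 lower, and 1 and 2 without replicate 1. The called share of the EGF list was 46.2%. Egf, a growth factor of Paneth cells, stood at 15.2 and 11.5 against 2.97 and 3.62 CPM (log2 change 2.08 ± 0.39 SE, adjusted p = 2.05e-05), and Lrig1, an inhibitor of its receptor, was higher as well. Areg, another ligand of the EGF receptor, was lower in PANETH-PRE, at 23.5 and 20.2 against 69.9 and 93.0 CPM (log2 change -1.88 ± 0.28 SE, adjusted p = 3.16e-05). The other lower genes were the ligands Hbegf (-1.38 ± 0.22) and Btc (-1.61 ± 0.34, adjusted p = 0.159 without replicate 1) and Spry1, an inhibitor of the pathway named after its values were seen. BMP and TGF-beta genes had 4 higher and 5 lower of 20 (45% called, against 24.1% of all genes). The lower ones included the BMP targets Id3 (36.0 and 32.4 against 110.4 and 118 CPM) and Id2, and the higher ones Bmp7 and the decoy receptor Bambi, which rests on 34 and 15 counts in PANETH-PRE. Without replicate 1, 3 were lower.

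Among genes that serve secretion, Slc30a2, the zinc transporter that loads Paneth granules, stood at 34.6 and 41.8 against 0.527 and 0.543 CPM (log2 change 6.01 ± 0.34 SE, adjusted p = 1.28e-26), from 50 and 58 counts against 8 and 3. In its zinc and metal list 5 of 17 were higher and 1 was lower (35.3% called, against 24.1% of all genes). Tmed6, a cargo receptor between the endoplasmic reticulum and the Golgi, stood at 159 and 118 against 11.8 and 9.59 CPM (log2 change 3.69 ± 0.16 SE, adjusted p = 4.44e-35). Folding and unfolded protein response genes had 7 higher and 4 lower of 37, and translocation and transport genes 7 higher and 4 lower of 50, with medians of 0.05 and 0.08. The called shares of 29.7% and 22% lay near the 24.1% of all genes. P4hb, a disulfide isomerase, was higher (0.59 ± 0.11) and Txndc5, another, lower (-0.81 ± 0.11). Higher transport genes numbered 1 without replicate 1 and 13 with the 4 sums alone, and lower ones 1 without replicate 2. Higher folding genes numbered 4 without replicate 1, and lower ones 2 without replicate 2. Lysosome and autophagy genes had 7 higher and 1 lower of 33, a called share of 24.2% that is also near that of all genes, led by the protease Lgmn (2.00 ± 0.24) and the membrane protein Lamp2 (1.42 ± 0.12).

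A mixed list of guanylate and cAMP signalling genes and ion channels had 9 higher and 3 lower of 24 (50% called, against 24.1% of all genes). Aqp1, a water channel, stood at 85.9 and 96.6 against 6.46 and 7.42 CPM (log2 change 3.71 ± 0.20 SE, adjusted p = 1.23e-21), and the chloride channel Cftr at 13.2 and 23.8 against 2.97 and 7.42 CPM. Among junction and adhesion genes 6 were higher and 11 lower of 29 (58.6% called). Cldn2, a pore-forming claudin of the crypt, stood at 183 and 178 against 24.5 and 21.2 CPM (log2 change 2.95 ± 0.14 SE, adjusted p = 1.45e-29). Lama5, a basement membrane laminin, had 13 and 17 counts in PANETH-PRE and 0 in both GOBLET-PRE sums. Against a limit of 3 counts in each of those sums, it was at least 45.5-fold higher in replicate 1 and at least 22.6-fold in replicate 2. Cd24a, a surface protein used to sort Paneth cells, stood at 1422 and 1428 against 197 and 233 CPM (log2 change 2.74 ± 0.12 SE, adjusted p = 4.16e-21).

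Keratins form the filaments of epithelial cells. Of 7 keratins tested 5 were lower in PANETH-PRE and none was higher, with a median of -0.95. The called share was 71.4%, against 24.1% of all genes. Krt8 stood at 831 and 1144 against 2560.4 and 2744 CPM (log2 change -1.43 ± 0.14 SE, adjusted p = 3.89e-14), and Krt20, a keratin of upper crypt and villus, changed by -3.77. Scin, an actin-severing protein, had the largest decrease outside the markers, at 15.9 and 31.0 CPM in PANETH-PRE and 508 and 551 in GOBLET-PRE (log2 change -4.53 ± 0.46 SE, adjusted p = 1.21e-05). Rgs2, a regulator of G-protein signalling, stood at 27 and 20.9 against 356 and 292 CPM (log2 change -3.75 ± 0.19 SE, adjusted p = 9.6e-20), and S100a6, a calcium-binding protein, at 95.5 and 180.3 against 1019 and 989.6 CPM. Krt8, Scin, Rgs2 and S100a6 did not overlap between the classes, as held for 55.4% of all genes tested. S100a6 did not pass with the 4 sums alone (adjusted p = 0.149). Summed enterocyte markers were lower in PANETH-PRE as well, at 0.146% and 0.108% of UMIs in GOBLET-PRE and 0.0202% and 0.0196% in PANETH-PRE. Of the 10 enterocyte markers 2 were called lower in PANETH-PRE, Krt20 and Fabp2, and 1 was called higher, with a median log2 change of -0.0030. Lct was at 0 in both classes and Alpi in PANETH-PRE; the part of enterocyte RNA was not tested.

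Among cell cycle genes, replication genes of G1/S were higher in PANETH-PRE in 15 of 35 and lower in none, with a median of 0.87, but only 3 to 8 passed when a library or any sum except that of replicate 2 of GOBLET-PRE was left out. Of 32 genes of G2/M 3 were higher (Mki67, Top2a and Kif11) and none lower, and no more than 1 passed when a library or any sum except that of replicate 2 of GOBLET-PRE was left out. The called shares were 42.9% for G1/S and 9.4% for G2/M, against 24.1% of all genes, so the G2/M list was called less often than genes at large. Mcm3, a subunit of the replicative helicase, stood at 9.69 and 13.7 against 2.24 and 3.98 CPM (log2 change 1.96 ± 0.37 SE, adjusted p = 1.96e-05). Mki67, a marker of cycling cells, stood at 40.8 and 49.0 against 18.9 and 30.4 CPM (log2 change 0.94 ± 0.25 SE, adjusted p = 0.00613) and at 687 and 607 CPM in the class SEC-PRO, and it did not pass without replicate 1 (adjusted p = 0.135) or with thinned cells (0.245). Among inhibitors of the cycle and genes of exit, 4 were higher and 7 lower of 19, and 2 and 4 without replicate 1. The called share of this list of inhibitors and exit genes was 57.9%. The inhibitor Cdkn2b stood at 7.62 and 7.93 against 55.4 and 39.3 CPM (log2 change -2.62 ± 0.26 SE, adjusted p = 1.05e-13), and the cyclin Ccnd2 at 202 and 255 against 864 and 994 CPM (log2 change -2.03 ± 0.17 SE, adjusted p = 4.74e-08).

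Metabolic and immune lists followed different courses. Oxidative phosphorylation genes of the nucleus were lower in PANETH-PRE in 28 of 39 and higher in none, with a small median of -0.35, led by Cox5a at 269 and 194 against 489 and 354 CPM (log2 change -0.86 ± 0.11 SE, adjusted p = 3.1e-10). The count was 12 without replicate 1, 14 without replicate 2 and 16 without the sum of either PANETH-PRE replicate or of GOBLET-PRE replicate 1. Glycolysis genes were lower in 11 of 21, and in 6 without replicate 1 or without replicate 2. Of the oxidative phosphorylation and glycolysis lists 71.8% and 52.4% were called, against 24.1% of all genes. MHC genes had 6 higher and 6 lower of 18 (66.7% called). Without replicate 1, 2 were higher and 3 lower. The higher ones were class II genes or their partners, such as H2-Aa at 265 and 206 against 72.3 and 70.6 CPM (log2 change 1.73 ± 0.26 SE, adjusted p = 0.000385), and the lower ones of class I and the immunoproteasome, such as Psmb8 (-0.92 ± 0.14). Summed immune markers, a list that includes the class II partner Cd74, took 0.0917% and 0.0791% of UMIs in PANETH-PRE, 0.0384% and 0.0408% in GOBLET-PRE and 0.166% and 0.123% in ISC. Of the 10 immune markers 2 could be tested and 1 was called higher, Cd74 (log2 change 1.47 ± 0.24 SE, adjusted p = 0.000613). In both PANETH-PRE sums 7 of the 10 were at 0, among them the leukocyte markers Ptprc, Cd3e and Tyrobp. Of the interferon response list 43.5% were called, against 24.1% of all genes. Interferon response genes had 3 higher and 7 lower of 23, and 1 and 2 lower without replicate 1 and replicate 2.

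**Figure D5:**
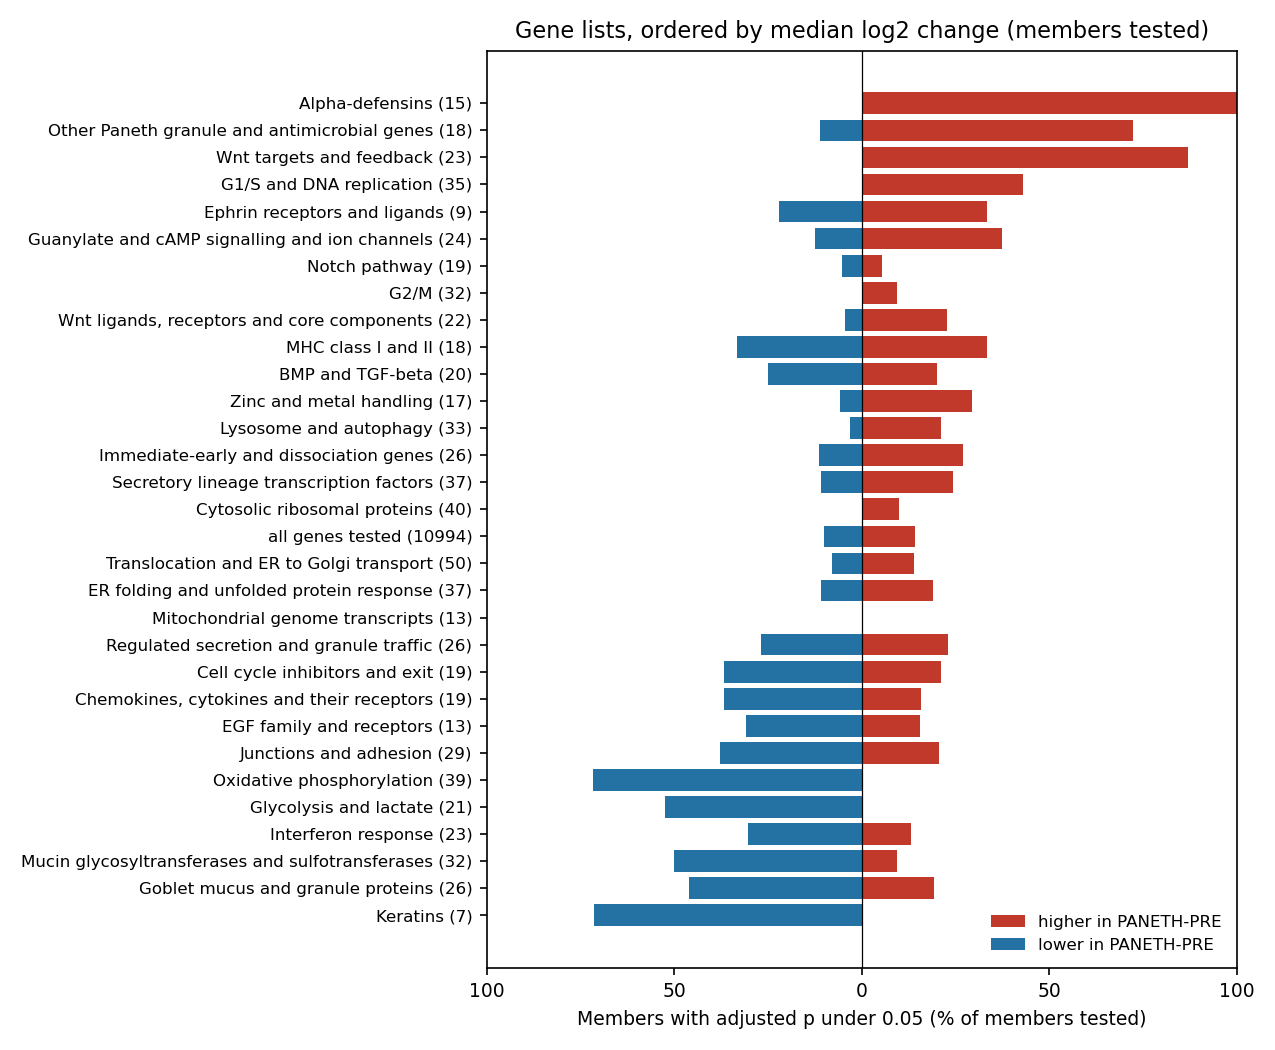
Bars give the percent of tested members of each gene list that were called higher (red, to the right) or lower (blue, to the left) in PANETH-PRE, with the number tested in brackets and lists ordered by median log2 change. Alpha-defensins reach 15 of 15 higher and Wnt targets 20 of 23, whereas keratins (5 of 7) and oxidative phosphorylation genes (28 of 39) reach furthest on the lower side, with all genes tested shown for comparison.

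The contrast was also set against that of the mature classes PANETH (610 cells) and GOBLET (126 cells). Of the 10994 genes, 932 (8.48%) differed between the mature contrast and the precursor contrast. In 664 of the 932 the mature change went further in the direction of the precursor change, and 428 of the 932 were also called between the precursors. The GOBLET sums held only 154169 and 232707 UMIs. Sox9 stood at 95.5 and 80.5 CPM in GOBLET-PRE and 19.8 and 18.6 in GOBLET, against 268 and 274 in PANETH-PRE and 279 and 262 in PANETH. The GOBLET values rest on 1 of 42 and 2 of 84 cells with a Sox9 UMI. For Lyz1, Zg16 and Muc2 the difference of differences did not pass (adjusted p = 0.296, 0.0552 and 0.11). Mmp7 was 2.69 ± 0.48 (SE) further apart on the log2 scale in the mature classes (adjusted p = 0.00328).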

How the data were processed

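Single-cell 3′ RNA of sorted Tom+ ileal crypt cells was measured in 2 libraries. Raw UMI counts per gene and barcode were deposited without a cell filter; the submitters' processing notes name Cell Ranger 3.0.2, STAR and the mm10 build. A table deposited by the authors lists the kept cells with a class, UMI and gene totals, and the percent of mitochondrial UMIs, per the file headers. How classes were assigned and whether doublets were removed was not stated. The members and gene lists here were chosen with earlier results of these data known.

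Counts were summed per library and class into 24 sums over 12 classes, with 31053 genes measured and 10994 kept by filterByExpr. The fit used edgeR 4.0.16 in R 4.3.3 (quasi-likelihood, robust), with class and library as terms, 11 residual degrees of freedom and Benjamini-Hochberg adjustment over all genes. TMM factors came from genes that averaged 6 or more in log2 CPM, so a scaled CPM can exceed its usual total where a few genes dominate a sum. The library term pairs both classes of a library: their differences between libraries correlated at 0.558 across 3827 genes, which are not independent replicates. Lists are described by counts and medians, with no test. The values of 1 enterocyte marker are not reported here.

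Named genes were the 12 largest changes in each direction among called genes that averaged 5 or more in log2 CPM and moved one way in each library. Markers, unnamed models, and haemoglobin, ribosomal protein and mitochondrial genes were not eligible. Further names are, per list and direction, the 3 members of smallest p, the Paneth and goblet markers, and 20 genes always named, which include Atoh1, Sox9, Lgr5, Wnt3 and Mki67. On simulated counts for this comparison (10787 genes), the fit called 16.9%, 63.6% and 83.1% of genes with a true log2 change of 0.5, 1 and 2, and 0.0567% of unchanged genes. These counts were drawn at the fitted dispersion alone, without the further spread per gene that the quasi-likelihood test estimates. The shares hold for that setting and need not hold for the measured sums.

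Shares of cells have exact 95% binomial intervals, which like the limit of 3 counts for a count of 0 cover counting error only. Free RNA is the sum of barcodes with at most 50 UMIs. Alternatives were other scalings, DESeq2 1.42.0, other filters, no library term, the 4 sums alone, left-out libraries and sums, thinned cells, cells under 5% mitochondrial UMIs, subtracted free RNA, and removal of cells with high doublet scores. Gene positions are from GENCODE M21 and promoters from RefSeq (GRCm38.p6).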

Additional observations from a re-analysis of the deposited data

Results flagged for a closer look

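Of the 44 markers and always-named genes looked at, 12 had a difference between PANETH and GOBLET that was not the same as that between PANETH-PRE and GOBLET-PRE (difference of the log2 changes, edgeR, adjusted p under 0.05, against 8.48% of all genes). Values here are the mature minus the precursor log2 change. All 12 lay further apart in the mature classes. The GOBLET sums were the smallest of the 4 classes, and free RNA in them was not tested for its part in these values.

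Among Paneth markers these were Gm14851 (3.59), Defa21 (3.45), Mptx1 (3.28), Defa22 (2.86), Mmp7 (2.69), Ang4 (2.56) and Defa30 (2.49), of which the defensins are near-identical copies. Among goblet markers they were Fcgbp (-3.15), Klk1 (-1.69) and Galnt12 (-1.26). Galnt12, a mucin glycosyltransferase, was not called between the precursors (log2 change -0.22, adjusted p = 0.192). The transcription factors Sox9 and Klf4 differed by 2.20 and -1.75, with precursor log2 changes of 1.61 and -0.70. Sox9 gave a UMI in only 1 of 42 and 2 of 84 GOBLET cells.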

How the results depend on the processing

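The counts of genes called higher and lower in PANETH-PRE were 1545 and 1102, and they stayed within 1.5 times under other scalings, DESeq2's Wald test, both other count filters, the 4 sums alone, the mitochondrial limit, free RNA subtraction and removal of the 5% of cells with the highest Scrublet score. They were 848 and 528 with no replicate block, so that pairing by library moved them, and 665 and 599 with cells thinned to 2000 UMIs, where 8137 genes were tested. Leaving out a replicate or a single sum gave 616 to 1258 genes higher and 459 to 916 lower. No direction reversed among the 186 named genes. Of the 174 that were called, 102 passed under all 18 alternatives and 43 did not pass in at least 1 fit that left out a replicate or sum; Mptx1, Ang4, Tff3 and Klk1 among the markers did not pass with no replicate block. The cause of these losses was not tested. Among the lists, oxidative phosphorylation had 28 genes called lower, and 10 with no replicate block, and alpha-defensins had 15 called higher, and 2 with the 4 sums alone. Shares of cells with a UMI moved with the thinning depth in 78 of 88 recomputed values, since fewer UMIs show fewer genes. The removal of called doublets was not run, since Scrublet's own limit marked 1 of 11562 cells. Removing cells by score and the free RNA bound from epithelial markers were chosen after seeing the data. In the simulation most changes of 0.5 on the log2 scale were missed, and recovery was not split by level. Named genes with few counts, such as Papss2 with 2 and 4 in PANETH-PRE, carry large counting errors.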
